A study of Mus musculus with 26 samples.

Results

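The genes described here encode the nonmuscle actin cytoskeleton and the focal adhesions that anchor it, in the aorta and mesenteric arteries of mice with hypertension caused by angiotensin II (AngII). They were chosen by name and function, with no measured value in the rule, and number 39 of the 55416 gene identifiers counted. They comprise 2 nonmuscle actins, 4 actinins and filamins, 3 tropomyosins, 5 nonmuscle myosin II chains, 13 focal adhesion adaptors and signalling proteins and 8 proteins of actin turnover and monomer binding, with Rhoa, Rock1, Rock2 and Diaph1 beside them. All 39 passed the filter on low counts in every fit. Earlier results of these data were known when these genes and the lists of other genes below were chosen. Their shares beside those of all genes are therefore descriptive.

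Actin filaments grow from monomers that profilin delivers and thymosins hold in reserve, are severed by cofilin and gelsolin, and are bundled by actinins and filamins. Focal adhesions join these filaments to integrins in the membrane through talin and vinculin, so that an arterial smooth muscle cell transmits its tension to the matrix. RhoA and its kinases ROCK1 and ROCK2 raise that tension by keeping myosin II light chains phosphorylated, and AngII is a well known activator of this pathway in vascular smooth muscle. Many genes of this system are transcribed by serum response factor (SRF), which binds the CArG box, while TEAD factors with YAP and TAZ read the state of the filaments.

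The study measured polyadenylated RNA in 26 libraries from male C57BL6J mice whose Sphk1 gene, which encodes sphingosine kinase 1, is flanked by loxP sites on both alleles. KO AngII mice (Sphk1f/f Tagln-cre+) carry Cre under the transgelin promoter and received AngII at 490 ng/kg/min for 14 days by minipump, starting at 12 to 14 weeks of age. WT AngII mice (Sphk1f/f Tagln-cre-) received the same infusion, and WT sham mice of that same Cre-negative genotype received no AngII. Each tissue has 5 KO AngII, 4 WT AngII and 4 WT sham libraries, and the protocol counts as many mice in each group. The transgelin promoter is used to drive Cre in smooth muscle, and which cell types of the wall lost Sphk1 was not measured in this bulk tissue. No knockout without AngII and no Cre carrier without floxed alleles was analysed here, so the knockout can be read only during infusion, and Cre itself and the loss of Sphk1 cannot be told apart.

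Assigned counts per library came to between 17540532 and 30050073 in mesenteric arteries and between 23487946 and 32251097 in aorta. The deletion was visible in both tissues, in CPM (counts scaled to a common library size, with trimmed-mean correction). Sphk1 lay between 1.78 and 3.42 CPM in KO AngII aortas, against 12.1 to 25.2 CPM in WT AngII aortas, a log2 fold change of -2.90 ± 0.26 (SE, edgeR adjusted p = 0.00046). In mesenteric arteries it lay between 2.81 and 4.62 CPM in KO AngII, against 9.50 to 17.2 CPM in WT AngII (log2 -1.83 ± 0.20, edgeR adjusted p = 0.0101). The 12 smooth muscle markers were all present in each group. The summed gut and pancreas markers reached 38010 CPM in a KO AngII, 55560 CPM in a WT AngII and 23140 CPM in a WT sham mesenteric library, against at most 19.5 CPM in any aortic library. Mesenteric KO AngII replicate 3 and WT AngII replicate 1 held the highest lymphocyte marker sums of their groups, at 1334 and 379.8 CPM. KO AngII replicate 1, at 538.9 CPM, was kept, as were the libraries with the gut and pancreas sums above. The mesenteric counts below are given with and without KO AngII replicate 3 and WT AngII replicate 1. They are among 4 mesenteric libraries (KO AngII replicates 2, 3 and 4 and WT AngII replicate 1) in which 11.4% to 14.7% of reads were not aligned, against 0.855% to 2.52% in the other 9. None of the 4 was a WT sham library. Leaving out all 4 gave 0 called members in each mesenteric comparison, as in the full set. Only KO AngII replicates 1 and 5 and WT AngII replicates 2, 3 and 4 then remained beside WT sham. With so few libraries a count of 0 says little about the part of the 4.

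Per kilobase of exon, the abundant members were the same in both arteries, although their order was not. In WT sham mesenteric arteries the highest levels per kilobase were Actb (cytoplasmic beta-actin) at 1344, Gsn (gelsolin) at 1034, Flna (filamin A) at 829, Myl6 (the essential light chain of nonmuscle and smooth muscle myosin) at 798 and Tmsb4x (thymosin beta 4, the main actin monomer buffer) at 722 CPM per kilobase. In WT sham aortas the order was Tmsb4x at 2049, Actb at 1474, Flna at 927, Gsn at 842 and Myl6 at 702 CPM per kilobase. The lowest members per kilobase were Tln2 (talin 2) at 2.43 and Myl12b (a regulatory light chain) at 1.79 in WT sham mesenteric arteries, against 1.10 and 1.76 CPM per kilobase in WT sham aortas. Counts per gene pool all isoforms, so the smooth muscle and nonmuscle forms made from Tpm1, Myl6, Actn1 and Vcl are not separated. Together the 39 genes took 3.05% to 4.07% of counts in KO AngII, 3.20% to 3.99% in WT AngII and 3.49% to 3.97% in WT sham mesenteric libraries. In aorta they took 2.68% to 3.61% in KO AngII, 2.65% to 3.82% in WT AngII and 3.78% to 4.24% in WT sham libraries.

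Promoter windows of 300 bases (250 before to 50 after a RefSeq start, GRCm38.p6) were found for 32 of the 39 genes. Actb, Tln2, Pxn, Ptk2, Parva, Rock1 and Diaph1 had no window and were not searched, so whether they carry either motif is not known here. The CArG box, searched on both strands in 43 windows, occurred in 3 of these 32 genes (9.38%), against 1.81% of the 27025 mouse genes in the same table. The TEAD motif GGAATG, also read on both strands, occurred in 8 of the 32 (25%), against 16.6% of all genes, and can share only its GG with the end of a CArG box. The 3 windows with a CArG box are shown because SRF is the factor most closely tied to actin genes, and the box is in capitals. They belong to Actg1 (cytoplasmic gamma-actin, minus strand, chr11:120348446-120348745), Myl6 (minus strand, chr10:128492960-128493259) and Vcl (vinculin, the talin-binding adaptor of adhesions, plus strand, chr14:20929148-20929447).
Actg1: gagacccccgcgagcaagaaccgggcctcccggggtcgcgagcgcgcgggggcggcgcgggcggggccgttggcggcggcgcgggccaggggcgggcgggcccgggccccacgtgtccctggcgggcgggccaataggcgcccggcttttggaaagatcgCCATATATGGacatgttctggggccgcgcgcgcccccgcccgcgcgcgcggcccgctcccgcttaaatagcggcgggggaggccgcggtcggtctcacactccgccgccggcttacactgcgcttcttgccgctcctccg
Myl6: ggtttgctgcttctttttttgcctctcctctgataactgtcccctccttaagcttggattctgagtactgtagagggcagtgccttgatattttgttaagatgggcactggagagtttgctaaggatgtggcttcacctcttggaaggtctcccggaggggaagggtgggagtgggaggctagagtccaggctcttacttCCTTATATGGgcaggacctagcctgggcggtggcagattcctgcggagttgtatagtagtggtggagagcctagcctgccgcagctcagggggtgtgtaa
Vcl: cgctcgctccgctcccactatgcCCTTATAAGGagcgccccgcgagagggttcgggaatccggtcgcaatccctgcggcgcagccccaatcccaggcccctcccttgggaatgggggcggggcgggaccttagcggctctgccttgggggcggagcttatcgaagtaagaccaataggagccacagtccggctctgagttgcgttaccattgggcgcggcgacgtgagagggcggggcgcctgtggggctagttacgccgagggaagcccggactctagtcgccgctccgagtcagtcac
The first base of the box lay 90 bases before the start in Actg1, 50 in Myl6 and 227 in Vcl. A match describes these letters only and shows no binding.

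AngII changed this gene group in the aorta in both directions. In WT AngII against WT sham aortas, 8 of the 39 members rose and 7 fell, 15 in all or 38.5%, against 25.5% of the 16863 genes tested (edgeR quasi-likelihood test, Benjamini-Hochberg adjusted p under 0.05). The members' median log2 fold change was 0.02, beside -0.0005 over all genes. By adjusted p the rises were led by the tropomyosin genes Tpm4 and Tpm3, and the falls by the adhesion protein Zyx and the kinase Rock1. In 12 of the 39 members the WT AngII and WT sham libraries did not overlap, against 4027 of the 16863 genes tested (23.9%). Bulk tissue cannot tell fewer cells of a type from less RNA per cell.

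**Figure D1:**
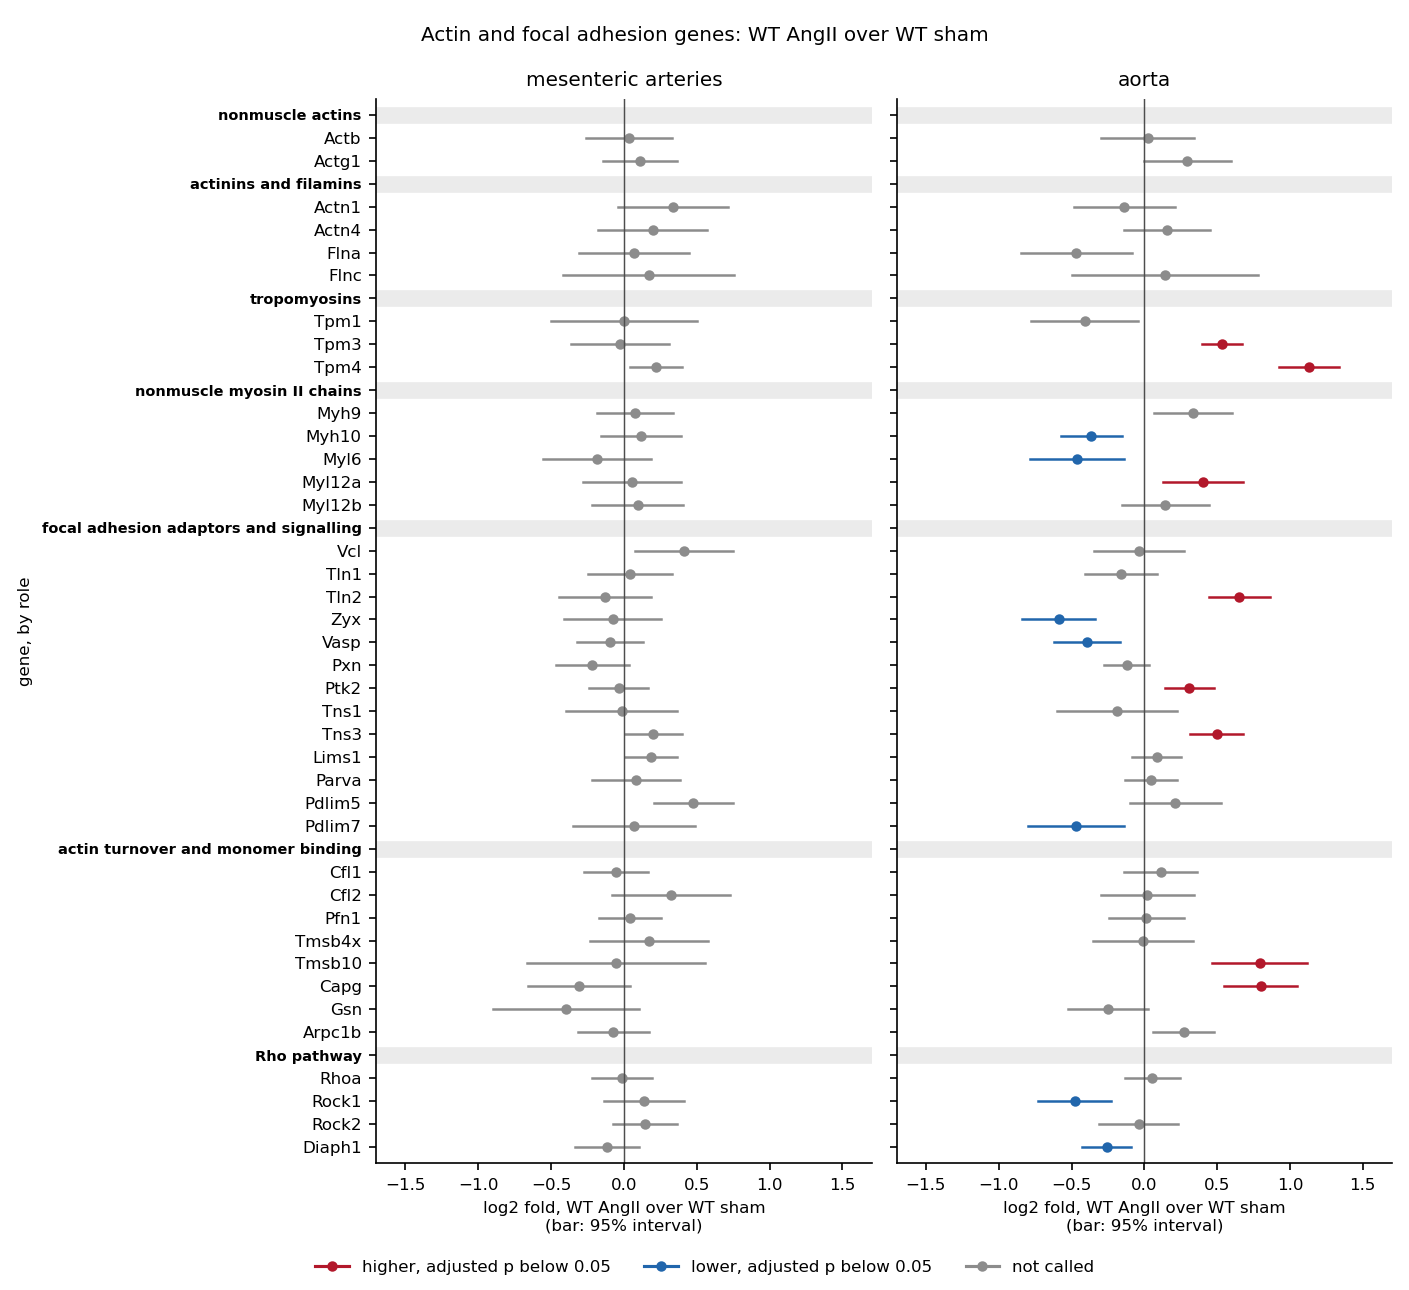
Log2 fold change of WT AngII over WT sham for each of the 39 genes, mesenteric arteries in the left panel and aorta in the right, grouped by role. Points are edgeR estimates and bars 95% intervals. Red (higher) and blue (lower) points have an edgeR adjusted p under 0.05, and grey points do not. In aorta 15 points are red or blue, from Zyx at -0.59 to Tpm4 at 1.13, and in mesenteric arteries none.

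Among the filament components, neither actin passed the test. Actb was measured at 3095, 3768, 4232 and 5101 CPM in WT AngII aortas, against 3769, 4354, 4034 and 3638 CPM in WT sham aortas, a log2 difference of 0.02, and Actg1 differed by 0.30 ± 0.14 (edgeR adjusted p = 0.138). None of the 4 actinins and filamins passed either, with Flna at -0.47 ± 0.18 (edgeR adjusted p = 0.0671). Of the 3 tropomyosins, which coat filaments and set which partners can bind, 2 rose. Tpm4 was measured at 514, 529, 604 and 640 CPM in WT AngII aortas, against 255.5, 283, 255 and 242 CPM in WT sham aortas. Each infused aorta lay above each sham aorta, and the fold was 2.19 (log2 1.13 ± 0.10, edgeR adjusted p = 5.22e-06). Tpm3 was measured at 197, 198, 210 and 195 CPM in WT AngII aortas, against 140, 138, 135 and 134 CPM in WT sham aortas. Both groups of Tpm3 values were narrow and far apart (log2 0.53 ± 0.06, edgeR adjusted p = 4.79e-05). Tpm1, whose smooth muscle isoforms are abundant in artery, had a log2 difference of -0.41 ± 0.17 (edgeR adjusted p = 0.0972).

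**Figure D2:**
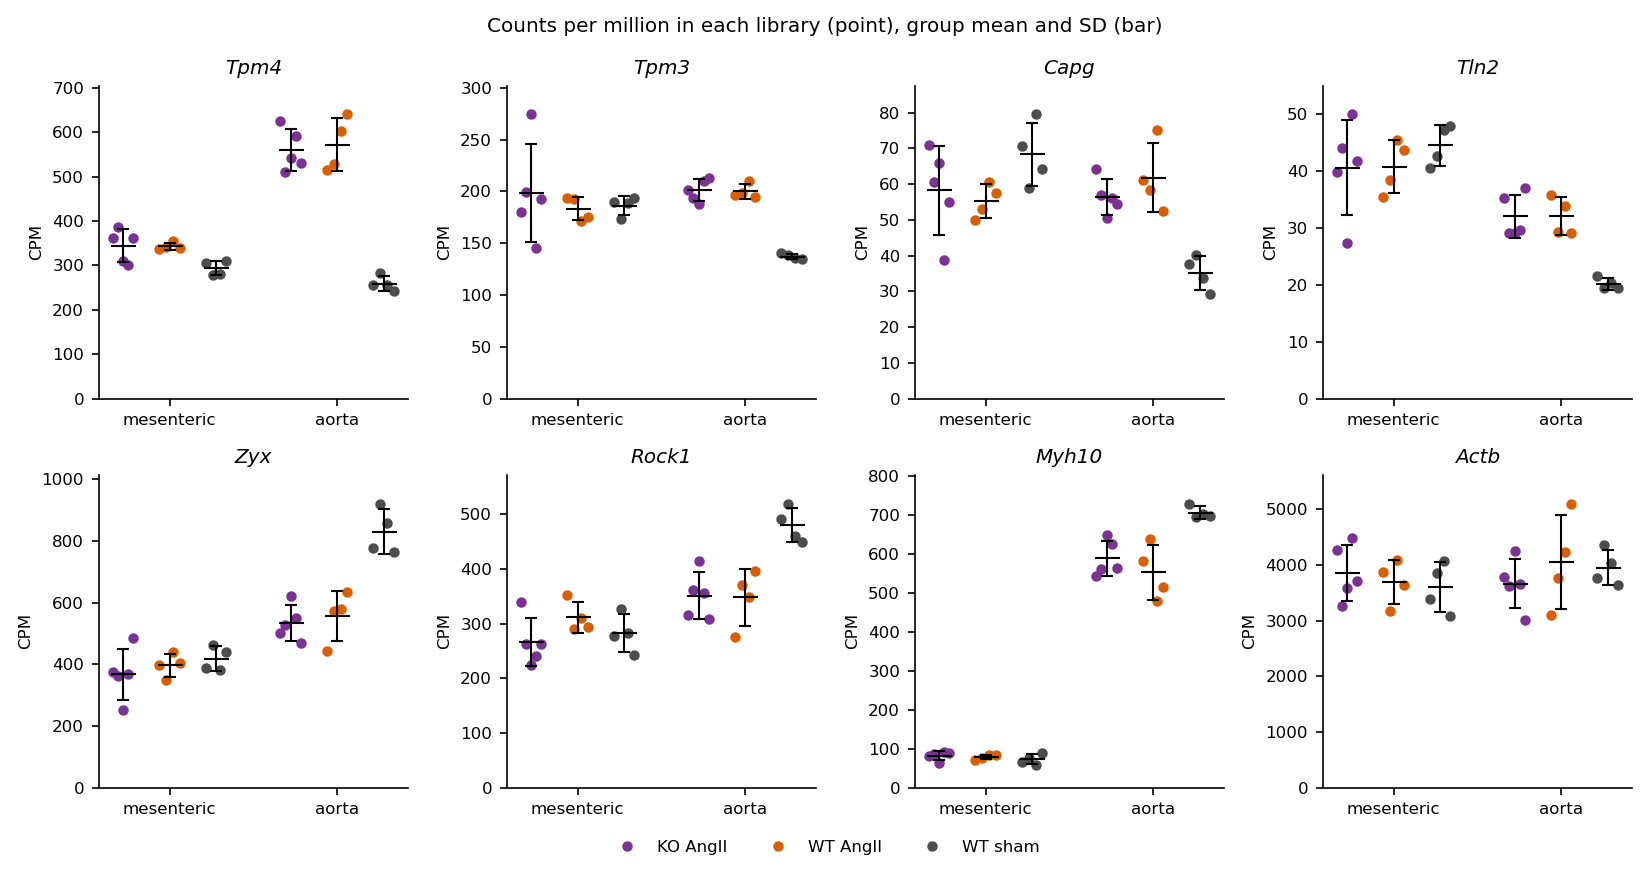
CPM in every library for Tpm4, Tpm3, Capg, Tln2, Zyx, Rock1, Myh10 and Actb, with mesenteric arteries before aorta and KO AngII, WT AngII and WT sham from left to right; each point is a library and each line a group mean. In aorta the infused groups of Tpm4, Tpm3, Capg and Tln2 lie above WT sham, those of Zyx, Rock1 and Myh10 below it, and Actb overlaps.

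Of the 5 nonmuscle myosin II chains, 1 rose and 2 fell. Myh10, the heavy chain of myosin IIB, was measured at 581, 638, 478 and 515 CPM in WT AngII aortas, against 729, 695, 702 and 698 CPM in WT sham aortas. Every infused value was below every sham value (log2 -0.37 ± 0.10, edgeR adjusted p = 0.0136). Myh9, the heavy chain of myosin IIA, had a log2 difference of 0.33 ± 0.13 that missed the threshold (edgeR adjusted p = 0.0643). Myl12a, a regulatory light chain whose phosphorylation switches myosin on, rose by 0.40 ± 0.13 (edgeR adjusted p = 0.0337) with overlapping groups. Myl6 fell by 0.46 ± 0.15 (edgeR adjusted p = 0.0347). Of the 3 members in which a CArG box was found, among the 32 searched, it alone passed the test. Myl12b had 103 to 163 counts per library and shares 26.7% of its exon length with a second identifier that carries the same name. That second identifier also covers 13.8% of the exon length of Myl12a, so the split between these light chains is uncertain.

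Among the 13 focal adhesion members, 3 rose and 3 fell. Tln2, a talin that links integrins to actin, was measured at 35.8, 29.2, 33.8 and 29.1 CPM in WT AngII aortas, against 21.5, 19.4, 20.3 and 19.4 CPM in WT sham aortas. Its groups did not overlap (log2 0.65 ± 0.10, edgeR adjusted p = 0.000249), whereas Tln1 differed by -0.16. Tns3 (tensin 3, which ties integrin tails to actin) rose by 0.50 ± 0.09 and Ptk2 (focal adhesion kinase) by 0.31 ± 0.08, with edgeR adjusted p = 0.000739 and 0.011. Zyx (zyxin, which gathers at stretched filaments to repair them) was measured at 442, 571, 579 and 635 CPM in WT AngII aortas, against 777, 921, 857 and 764 CPM in WT sham aortas. All 4 infused aortas were below the lowest sham aorta (log2 -0.59 ± 0.12, edgeR adjusted p = 0.00227). Vasp, a partner of zyxin that promotes filament growth, was measured at 148, 163, 176 and 203 CPM in WT AngII aortas, against 208, 245, 233 and 211 CPM in WT sham aortas. It fell by 0.39 ± 0.11 (edgeR adjusted p = 0.0141), and Pdlim7 (a PDZ and LIM adaptor on filaments) by 0.47 ± 0.15 (edgeR adjusted p = 0.0363) with overlapping groups. The other 7 (Vcl, Tln1, Pxn, Tns1, Lims1, Parva and Pdlim5) had log2 differences from -0.19 for Tns1 to 0.21 for Pdlim5, none called.

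Of the 8 turnover and monomer-binding members, 2 rose and none fell. Capg, which caps filament ends and is abundant in macrophages, was measured at 61.1, 58.4, 75.2 and 52.6 CPM in WT AngII aortas, against 37.6, 40.1, 33.8 and 29.3 CPM in WT sham aortas. The groups did not overlap (log2 0.80 ± 0.12, edgeR adjusted p = 0.000218). Tmsb10 (thymosin beta 10, a monomer buffer) was measured at 129, 110, 149 and 80.1 CPM in WT AngII aortas, against 67.4, 77.0, 66.6 and 57.0 CPM in WT sham aortas (log2 0.79 ± 0.15, edgeR adjusted p = 0.00178). Its relative Tmsb4x differed by -0.01, and Pfn1 (profilin 1), Cfl1 and Cfl2 (cofilins), Gsn and Arpc1b (a subunit of the Arp2/3 nucleator) did not pass. The kinase Rock1 was measured at 275, 370, 349 and 396 CPM in WT AngII aortas, against 491, 519, 460 and 450 CPM in WT sham aortas, with no overlap (log2 -0.48 ± 0.12, edgeR adjusted p = 0.00829). Diaph1 (a formin that RhoA activates to elongate filaments) fell by 0.26 ± 0.08 (edgeR adjusted p = 0.0268) with overlapping groups. Rock2 and Rhoa differed by -0.04 and 0.05.

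Some of these calls rested on single libraries. Leaving out 1 library at a time, 11 (without WT sham replicate 3) to 19 (without WT AngII replicate 4) members were called. Diaph1 was lost without WT AngII replicate 1 or 2 or WT sham replicate 1 or 3 (edgeR adjusted p up to 0.0811), and Myl12a without WT AngII replicate 3 or WT sham replicate 1, 3 or 4 (up to 0.105). Myl6 was lost without WT AngII replicate 1 or 2 or WT sham replicate 2 or 3 (edgeR adjusted p up to 0.105). Pdlim7 was lost without KO AngII replicate 4, WT AngII replicate 1 or 2, or WT sham replicate 1, 2 or 3 (up to 0.0992). Scaling by library size alone moved the median of all genes to -0.13 and gave 6 members higher and 12 lower, dropping Ptk2 and Myl12a and adding Gsn, Tln1, Pxn, Flna and Tpm1 among the lower ones. Over all genes that scaling gave 1747 higher and 3729 lower, against 2475 higher and 1826 lower in the reported fit.

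Marker sums moved with these results, and their part in them was not tested. All 12 macrophage markers rose, with sums of 822 to 1118 CPM in WT AngII aortas against 602 to 732 CPM in WT sham aortas. All 8 cell division markers rose, with sums of 54.1 to 98.6 CPM in WT AngII against 10.3 to 15.9 CPM in WT sham, and 5 of the 10 fibroblast markers rose and 1 fell, with sums of 4733 to 12330 CPM in WT AngII and 4068 to 4207 CPM in WT sham. Of the 12 smooth muscle markers 3 fell, with sums of 22390, 33390, 38550 and 42740 CPM in WT AngII replicates 1 to 4, against 38860 to 48010 CPM in WT sham aortas. Of the 5 red blood cell markers 4 fell, with sums of 20.1 to 51.2 CPM in WT AngII against 38.3 to 130.4 CPM in WT sham aortas. Of the 10 endothelial markers 1 rose and 2 fell, with sums of 677 to 1026 CPM in WT AngII against 986 to 1113 CPM in WT sham aortas. WT AngII replicate 1, with the lowest smooth muscle sum and the highest fibroblast sum, was the lowest of its group for 27 of the 39 members, and replicate 4, at the other end of both sums, was the highest for 24. The median coefficient of variation of the members was 16.5% among WT AngII aortas and 6.55% among WT sham aortas.

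The rest of the actin and adhesion machinery, listed from knowledge of the pathway, was also split. Of 133 such genes tested in aorta, 30 rose and 13 fell (32.3%), against 25.5% of all genes. Among other focal adhesion proteins 8 of 33 rose and 5 fell. Palld (palladin, a scaffold of stress fibres) rose by 0.85 ± 0.12, Parvg (the parvin of blood cells) by 2.16 ± 0.34 and Lasp1 by 0.45 ± 0.07, while Pdlim4 fell by 0.93 ± 0.14, Tns2 by 0.42 ± 0.09 and Kank1 by 0.57 ± 0.14 on the log2 scale. In the Arp2/3 list 5 of 21 rose and none fell (23.8%, no more than the share of all genes), led by Coro1a (the coronin of leukocytes) at 1.25 ± 0.18, Arpc5 at 0.37 ± 0.06 and Cttn (cortactin) at 0.29 ± 0.06.

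Among other actin-binding proteins 9 of 39 rose and 4 fell. Lcp1 (the plastin of leukocytes) rose by 1.06 ± 0.15, Ezr (ezrin) by 0.67 ± 0.11 and Capza1 (a capping protein subunit) by 0.53 ± 0.09, and Tmod1 (tropomodulin 1) fell by 0.92 ± 0.14, Scin (scinderin) by 1.23 ± 0.28 and Cap2 by 0.58 ± 0.13. Elsewhere on the lists the formin Diaph3 rose by 2.34 ± 0.23 (edgeR adjusted p = 8.67e-06), the cytokinesis kinase Cit by 2.34 ± 0.36 and the haematopoietic GTPase Rac2 by 1.02 ± 0.16. The myosin phosphatase subunits Ppp1r12a and Ppp1cb fell by 1.04 ± 0.14 (edgeR adjusted p = 9.83e-05) and 0.43 ± 0.13. Of the 10 transcription factors and cofactors, Wwtr1 (TAZ) rose by 0.42 ± 0.10, while Tead3 fell by 0.35 ± 0.12 and Srf by 0.41 ± 0.14 (edgeR adjusted p = 0.0478).

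Ratios between related members of the same library need no scaling of libraries, and 8 of the 9 pairs examined separated all WT AngII from all WT sham aortas. Of single genes 23.9% did so, and the share over other pairs of genes was not measured. The count of 8 therefore describes these pairs only. The log2 ratio of Tpm4 to Tpm1 counts was -1.16, -1.63, -1.64 and -1.65 in WT AngII aortas, against -3.09, -3.06, -3.14 and -3.03 in WT sham aortas, a mean difference of 1.56. Myh9 over Myh10 gave 0.20, 0.21, 0.26 and 0.80 in WT AngII aortas, against -0.22, -0.54, -0.29 and -0.27 in WT sham aortas. The ratio of Tln1 to Tln2 was different by -0.82 and that of Rock1 to Rock2 by -0.43 in WT AngII, and Tmsb10 over Tmsb4x was higher by 0.78. Smaller differences separated Actb over Actg1 (-0.26), Actn1 over Actn4 (-0.31) and Myl12a over Myl12b (0.26), and Cfl1 over Cfl2 overlapped (0.12).

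**Figure D3:**
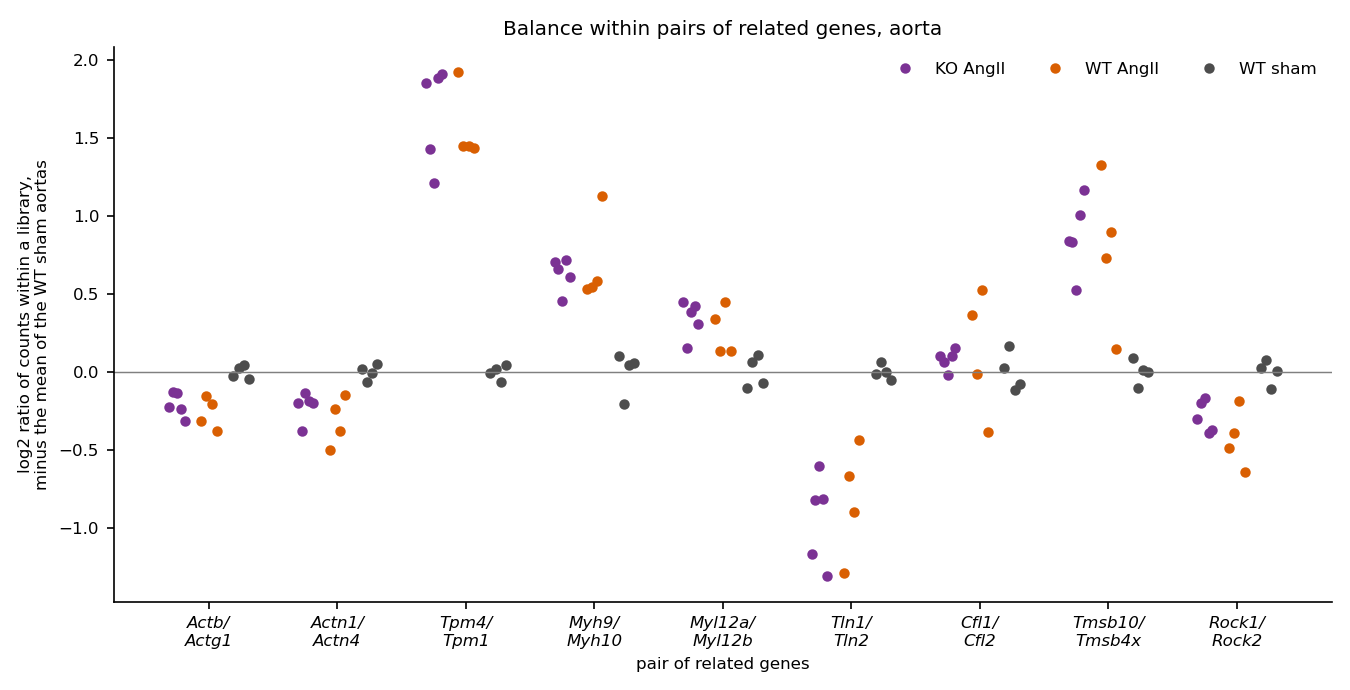
Log2 ratio of the counts of 9 pairs of related genes in each aortic library, with the WT sham mean of the pair subtracted; KO AngII, WT AngII and WT sham stand from left to right. WT AngII and WT sham points do not overlap in 8 pairs, and KO AngII points overlap those of WT AngII in all 9.

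Each such separation reached the smallest two-sided p that 4 against 4 libraries allow in an exact permutation test, 0.0286. Over the 36 tests of 9 pairs in 4 comparisons the adjusted value was 0.103 at best, so none passed. A pair at that smallest p could pass only if most of the 36 tests gave a p as small. The lack of a pass therefore says little about any single pair. In mesenteric arteries 2 pairs separated WT AngII from WT sham, Actn1 over Actn4 (0.14) and Cfl1 over Cfl2 (-0.37), and none separated KO AngII from WT AngII in either tissue. Because the members' folds were already known, these ratios restate them on another scale.

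The knockout was not accompanied by a detectable change of any member in the infused aorta. In KO AngII against WT AngII aortas 0 of 39 were called by edgeR, 0 by DESeq2 and 0 by limma voom. By edgeR 0.00593% of all genes were called, which is Sphk1 alone. An unadjusted edgeR p under 0.05 was found for 0 members, beside 608 of the 16863 genes tested. The 95% interval of the fold stayed within 2-fold either way for all 39 and within 1.5-fold for 38, the exception being Flnc (filamin C), at -0.33 with a lower bound of -0.93. Fold changes ran from that value to 0.09 for Gsn. Tpm4 was measured at 625, 511, 542, 593 and 531 CPM in KO AngII aortas, within or close to the 514 to 640 CPM of WT AngII aortas (log2 -0.03 ± 0.09). Tpm3 lay at 202, 194, 188, 210 and 213 CPM in KO AngII aortas, against 195 to 210 CPM in WT AngII aortas (log2 0.01 ± 0.06).

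**Figure D4:**
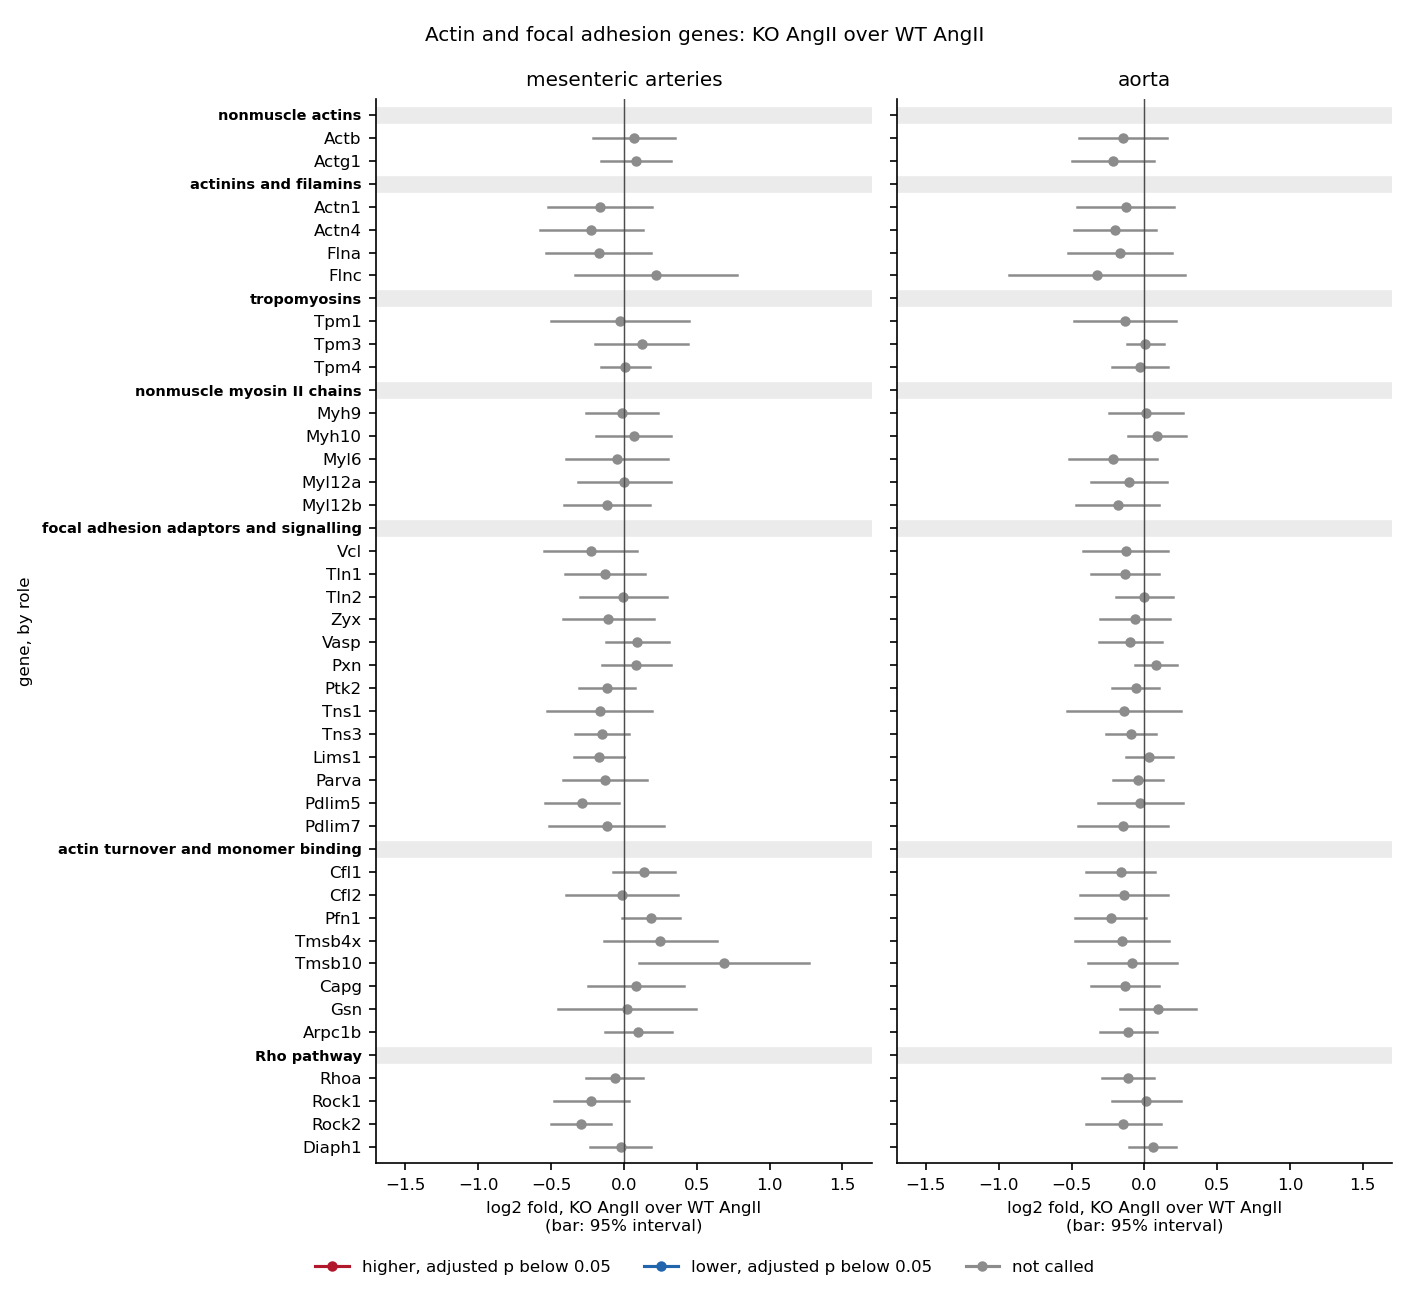
Log2 fold change of KO AngII over WT AngII for the 39 genes, mesenteric arteries left and aorta right, with 95% intervals from edgeR. No point is called in either tissue; in aorta 31 of 39 lie below 0, and all lie between -0.33 and 0.09.

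The sign of these small values leaned one way: 31 of 39 members were lower and 8 higher in KO AngII aortas, with a median of -0.11 beside -0.009 over all genes. The members with the smallest unadjusted p were Pfn1 at -0.23 ± 0.11, Actg1 at -0.22 ± 0.13, Actn4 at -0.20 ± 0.13 and Myl6 at -0.22 ± 0.14, each with an edgeR adjusted p = 0.981. Leaving out 1 library at a time, Pfn1 ran from -0.33 to -0.13 and Actg1 from -0.32 to -0.04. Actn4 then ran from -0.31 to -0.12 and Myl6 from -0.34 to -0.10. Pfn1 was measured at 362, 324, 362, 333 and 310 CPM in KO AngII aortas, against 316, 368, 484 and 420 CPM in WT AngII aortas, so only the lowest KO value lay outside the WT range. Actg1 was measured at 667, 596, 706, 650 and 566 CPM in KO AngII aortas, against 582, 635, 738 and 1003 CPM in WT AngII aortas, where replicate 4 stood highest. WT AngII replicate 4 was the highest of its group for 24 of the 39 members. All 12 smooth muscle markers also had negative values in this comparison, with sums of 23200 to 39430 CPM in KO AngII and 22390 to 42740 CPM in WT AngII aortas, and their part in the lean was not tested. None of the 133 other pathway genes passed in this comparison. The gene with the smallest p in each list differed by -0.18 ± 0.08 for Sorbs3, 0.41 ± 0.20 for Wasf3, 0.77 ± 0.44 for Myh14, -0.16 ± 0.07 for Ssh1 and -0.13 ± 0.11 for Tead3, all with an edgeR adjusted p = 0.981.

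Set against WT sham aortas, a control that the comparison of WT AngII with WT sham shares, the KO AngII aortas gave 8 members higher and 8 lower. These 16 are 41% of the members, against 30.8% of all genes. Tpm4 rose by 1.10 ± 0.09 (edgeR adjusted p = 2.75e-06), Tpm3 by 0.54 ± 0.06, Tln2 by 0.65 ± 0.09, Capg by 0.67 ± 0.11, Tns3 by 0.40 ± 0.08, Tmsb10 by 0.71 ± 0.14, Ptk2 by 0.25 ± 0.08 and Myh9 by 0.34 ± 0.12 (edgeR adjusted p = 0.0407). Zyx fell by 0.65 ± 0.11 (edgeR adjusted p = 0.000538), Vasp by 0.49 ± 0.10, Myl6 by 0.68 ± 0.14, Pdlim7 by 0.62 ± 0.15, Rock1 by 0.47 ± 0.11, Flna by 0.63 ± 0.17, Tpm1 by 0.54 ± 0.16 and Myh10 by 0.28 ± 0.09. In 18 of the 39 members the groups did not overlap, against 5440 of the 16863 genes tested (32.3%). Scaling by library size alone gave 6 higher and 11 lower, with the median of all genes at -0.11, against 8 and 8 and -0.008 in the reported fit. That scaling dropped Myh9 and Ptk2 and added Pfn1, Diaph1 and Tln1 among the lower ones, and testing without the filter on low counts dropped Ptk2.

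Markers of other cells moved in this comparison too, and their part in it was not tested. Of the 12 smooth muscle markers 8 fell, with sums of 23200 to 39430 CPM in KO AngII against 38860 to 48010 CPM in WT sham aortas. All 12 macrophage markers rose (1044 to 1238 CPM in KO AngII against 602 to 732 CPM in WT sham), as did all 8 cell division markers (55.4 to 100.2 CPM in KO AngII against 10.3 to 15.9 CPM in WT sham). Of the 10 fibroblast markers 6 rose, with sums of 6160 to 10010 CPM in KO AngII against 4068 to 4207 CPM in WT sham. All 5 red blood cell markers fell, with sums of 29.5 to 38.2 CPM in KO AngII against 38.3 to 130.4 CPM in WT sham aortas.

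Tln2 lay at 35.3, 29.0, 29.2, 29.6 and 36.9 CPM in KO AngII aortas, against 19.4 to 21.5 CPM in WT sham aortas, and Capg at 64.2, 57.1, 50.4, 56.2 and 54.5 CPM in KO AngII against 29.3 to 40.1 CPM in WT sham. Zyx lay at 501, 526, 621, 549 and 468 CPM in KO AngII aortas, against 764 to 921 CPM in WT sham aortas, and Vasp at 158, 161, 186, 165 and 137 CPM in KO AngII against 208 to 245 CPM in WT sham. Myl6 was measured at 1405, 1451, 1684, 1280 and 1237 CPM in KO AngII aortas, against 2036, 2645, 2193 and 2077 CPM in WT sham aortas. Pdlim7 was measured at 300, 339, 376, 316 and 262 CPM in KO AngII aortas, against 452, 550, 498 and 433 CPM in WT sham aortas. In none of these 6 did a KO library reach the sham range, and KO AngII replicate 5, with the lowest smooth muscle marker sum of its group, was the lowest KO library for 25 of the 39 members. Leaving out 1 library gave 12 (without WT sham replicate 3) to 18 (without WT AngII replicate 1) called members, and 4 members lost their call in some of these fits. Myh9 lost it on leaving out any of the KO AngII libraries, WT AngII replicate 2 or WT sham replicate 2, 3 or 4 (edgeR adjusted p up to 0.146), and Myh10 without KO AngII replicate 1, 2 or 5 or WT sham replicate 1, 2 or 3 (up to 0.0811). Ptk2 lost it without KO AngII replicate 4 or WT sham replicate 3 or 4 (up to 0.0776), and Tpm1 without KO AngII replicate 4 or 5 or WT sham replicate 2 or 3 (up to 0.0529). Of the 133 other pathway genes 33 rose and 24 fell in KO AngII against WT sham aortas (42.9%, against 30.8% of all genes). Among other focal adhesion proteins 6 of 33 rose and 11 fell, with Palld at 0.85 ± 0.11, Parvg at 2.48 ± 0.33, Lasp1 at 0.50 ± 0.07, Pdlim4 at -1.18 ± 0.13, Tns2 at -0.44 ± 0.09 and Tgfb1i1 at -0.59 ± 0.12. Among other actin-binding proteins 12 of 39 rose and 7 fell, with Lcp1 at 1.27 ± 0.14 and Scin at -1.58 ± 0.26. In the Arp2/3 list 6 of 21 rose and 1 fell. Of the 10 transcription factors and cofactors 2 rose and 2 fell, with Srf at -0.53 ± 0.13.

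In mesenteric arteries AngII moved no member past the threshold. In WT AngII against WT sham mesenteric arteries 0 of 39 were called by edgeR, where 0.183% of 17513 genes were. DESeq2 and limma voom each called 1. By edgeR 5 members had an unadjusted p under 0.05, beside 1864 of the 17513 genes tested. The fold stayed within 2-fold for all 39 intervals and within 1.5-fold for 31, and the members' median was 0.06 beside -0.0004 over all genes. Pdlim5 (an adaptor between actinin and kinases) was measured at 385, 313, 332 and 314 CPM in WT AngII mesenteric arteries, against 232, 271, 226 and 235 CPM in WT sham mesenteric arteries. Its groups did not overlap (log2 0.48 ± 0.12, edgeR adjusted p = 0.19), and it was the gene called by DESeq2 (adjusted p = 0.015), by limma voom (adjusted p = 0.0233) and by edgeR without KO AngII replicate 3 (adjusted p = 0.0366). Tpm4 lay at 338, 342, 355 and 339 CPM in WT AngII mesenteric arteries, against 305, 279, 281 and 311 CPM in WT sham mesenteric arteries, also without overlap (log2 0.22 ± 0.08, edgeR adjusted p = 0.36). Vcl lay at 915, 703, 876 and 744 CPM in WT AngII against 566, 696, 588 and 577 CPM in WT sham (log2 0.41 ± 0.15, edgeR adjusted p = 0.367), and Tns3 differed by 0.20 ± 0.09. No pathway gene passed either, and without the 2 libraries that stand apart the count of members was still 0. The smallest adjusted p was that of the adhesion docking protein Nedd9, at 0.36 ± 0.07 (edgeR adjusted p = 0.0984), followed by the cytokinesis scaffold Anln, at 0.68 ± 0.14 (0.0995). Values for the leading gene of the other lists were 0.18 ± 0.08 for Nckap1, 0.62 ± 0.18 for Diaph3 and 0.63 ± 0.20 for Myocd. Cell division marker sums were 54.5 to 67.6 CPM in WT AngII against 14.6 to 16.7 CPM in WT sham mesenteric arteries. Endothelial marker sums were 2931 to 3629 CPM in WT AngII against 3944 to 4292 CPM in WT sham mesenteric arteries. The sums of all other marker lists overlapped between these groups, and the part of the markers was not tested.

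The knockout gave no call in mesenteric arteries. In KO AngII against WT AngII 0 of 39 members were called by edgeR, DESeq2 or limma voom. By edgeR 0.00571% of all genes were called, again Sphk1 alone. An unadjusted edgeR p under 0.05 was found for 4 members, beside 872 of the 17513 genes tested. Rock2 was measured at 278, 302, 216, 263 and 289 CPM in KO AngII mesenteric arteries, against 346, 310, 354 and 317 CPM in WT AngII mesenteric arteries (log2 -0.30 ± 0.10). Tmsb10 was measured at 131, 100, 199, 89.2 and 96.0 CPM in KO AngII mesenteric arteries, against 63.0, 83.6, 74.0 and 87.3 CPM in WT AngII mesenteric arteries (log2 0.69 ± 0.27). Neither pair of groups overlapped. The highest Tmsb10 value was that of KO AngII replicate 3, and without that library the log2 difference was 0.44. Replicate 3 also had the highest macrophage (2278 CPM) and lymphocyte (1334 CPM) marker sums of its group and the lowest smooth muscle sum (27660 CPM). The part of these markers in the Tmsb10 difference was not tested. Pdlim5 differed by -0.29 ± 0.12 and Lims1 (PINCH1, a partner of integrin-linked kinase) by -0.17 ± 0.08, and all 4 had an edgeR adjusted p = 0.798. The interval stayed within 2-fold for 38 members, Tmsb10 being the exception, and leaving out both libraries that stand apart gave 0 calls again. No pathway gene passed, with -0.53 ± 0.20 for Sorbs2, -0.20 ± 0.07 for Nckap1, -0.15 ± 0.06 for Rdx, -0.15 ± 0.08 for Arhgef12 and -0.29 ± 0.11 for Tead1.

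KO AngII against WT sham mesenteric arteries likewise gave 0 of 39 calls by edgeR, while 0.708% of all genes were called. Of the members 4 had an unadjusted edgeR p under 0.05, beside 3347 of the 17513 genes tested. Tpm4 lay at 363, 387, 311, 300 and 362 CPM in KO AngII mesenteric arteries, against 279 to 311 CPM in WT sham mesenteric arteries (log2 0.23 ± 0.08, edgeR adjusted p = 0.161). It was called by DESeq2 (adjusted p = 0.0206) and limma voom (adjusted p = 0.0406), each of which called 1 member, while edgeR without the libraries that stand apart called 0. Pfn1 differed by 0.23 ± 0.09, Tmsb4x by 0.42 ± 0.18 and Tmsb10 by 0.63 ± 0.27. Leaving out 1 library at a time, these ran from 0.19 to 0.29, 0.28 to 0.54 and 0.38 to 0.86. Endothelial marker sums were 1967 to 3455 CPM in KO AngII against 3944 to 4292 CPM in WT sham mesenteric arteries. Cell division sums were 39.9 to 105.1 CPM in KO AngII against 14.6 to 16.7 CPM in WT sham. The sums of all other marker lists overlapped, and the part of the markers was not tested. Mesenteric KO AngII replicate 3 was the lowest of its group for 22 of the 39 members, and the members' median coefficient of variation was 16.5% in that group, 9.21% in WT AngII and 9.53% in WT sham.

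By edgeR the size of the AngII response differed between the arteries for 3 members. In a model of all 26 libraries the mesenteric effect minus the aortic effect was called for 0 members as higher and 3 as lower (7.69%), against 2.34% of the 18520 genes tested. DESeq2 called 5 members (Rock1 and Tpm3 added) and limma voom 9 (Rock1, Tpm3, Tns3, Pdlim7, Vasp and Tmsb10 added). The 2.34% is that of edgeR alone, and the share of all genes that each of these other tools called is not given. For Tpm4 the effect of AngII in the fit of each tissue was 0.22 in mesenteric arteries and 1.13 in aorta, and in the joint model a difference of -0.92 ± 0.13 (edgeR adjusted p = 0.000424). For Capg it was -0.31 in mesenteric arteries and 0.80 in aorta (difference -1.12 ± 0.20, edgeR adjusted p = 0.00391). WT AngII mesenteric arteries had 49.8, 53.0, 60.6 and 57.6 CPM of Capg and WT sham mesenteric arteries 70.6, 59.0, 79.5 and 64.3 CPM, groups that overlapped. For Tln2 the effect was -0.13 in mesenteric arteries and 0.65 in aorta (difference -0.79 ± 0.18, edgeR adjusted p = 0.0219). That Tln2 call was lost without aortic WT AngII replicate 1, aortic WT sham replicate 4, mesenteric WT AngII replicate 1 or mesenteric WT sham replicate 4 (edgeR adjusted p up to 0.0554). Without mesenteric KO AngII replicate 3 the count was 5, with Rock1 and Tpm3 added. Scaling by library size alone gave 1 member higher (Rock1) and 3 lower. Without both libraries that stand apart, or without the 4 with the most reads not aligned, the count was 4, with Tpm3 added.

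The macrophage marker sum was 315 to 822 CPM in WT AngII and 226 to 444 CPM in WT sham mesenteric arteries, beside the aortic values above, and its part in the Capg difference was not tested. Of 134 pathway genes 1 differed upward and 3 downward, and this 2.99% lies near the 2.34% of all genes. Ppp1r12a differed by 1.05 ± 0.24 (edgeR adjusted p = 0.0196), Diaph3 by -1.73 ± 0.28, Cit by -2.32 ± 0.42 and the bundling protein Fscn1 by -2.24 ± 0.54, mesenteric minus aorta. The difference of the knockout effect between arteries was called for 0 of 39 members and 0% of all genes by edgeR. DESeq2 and limma voom each called 0 members. An unadjusted edgeR p under 0.05 was found for 2 members, beside 749 of the 18520 genes tested. The members with the smallest p had differences of 0.41 ± 0.15 for Pfn1, 0.76 ± 0.31 for Tmsb10, 0.29 ± 0.14 for Cfl1 and -0.21 ± 0.11 for Lims1, each with an edgeR adjusted p = 0.953.

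The sham arteries of the tissues differed from each other in many members. In WT sham mesenteric arteries against WT sham aortas 9 members were higher and 12 lower, 53.8% of the 39, against 38.4% of all genes. In 22 of the 39 members the tissues did not overlap, against 7777 of the 18520 genes tested (42%). The tables of the tissues carry differently written gene identifiers and were counted apart, and a tissue contrast includes any difference between those countings. The list sums of other cell types also differed. Endothelial markers summed to 3944 to 4292 CPM in WT sham mesenteric arteries against 986 to 1113 CPM in WT sham aortas. Higher in mesenteric arteries were also the lymphocyte sums (49.6 to 156 against 19.8 to 27.4 CPM) and the gut and pancreas sums (46.2 to 23140 against 15.3 to 19.0 CPM). So were the skeletal and cardiac muscle sums (33.7 to 48.6 against 8.92 to 23.3 CPM). Macrophage sums were lower (226 to 444 against 602 to 732 CPM). Sums of the other lists overlapped, and the part of the markers in these differences was not tested.

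Myh10 stood furthest apart. It was measured at 67.0, 75.9, 59.1 and 88.7 CPM in WT sham mesenteric arteries, against 729, 695, 702 and 698 CPM in WT sham aortas, a fold of 0.103 (log2 -3.28 ± 0.13, edgeR adjusted p = 7.5e-15). Its relative Myh9 was higher in mesenteric arteries by 0.40 ± 0.12 (edgeR adjusted p = 0.0109). Tmsb4x lay at 1070, 848, 1055 and 984 CPM in WT sham mesenteric arteries, against 2648, 3455, 2757 and 2379 CPM in WT sham aortas (log2 -1.51 ± 0.18, edgeR adjusted p = 3.08e-07). Zyx lay at 388, 462, 382 and 441 CPM in WT sham mesenteric arteries, against 764 to 921 CPM in WT sham aortas (log2 -0.99 ± 0.14). Rock1 lay at 277, 327, 282 and 243 CPM in WT sham mesenteric arteries, against 450 to 519 CPM in WT sham aortas (log2 -0.77 ± 0.13). None of these 4 genes had a mesenteric library within the aortic range. The other 8 lower members were Vasp (-0.63), Tns1 (-0.79), Pfn1 (-0.38), Myl12a (-0.51), Actn1 (-0.58), Vcl (-0.43), Diaph1 (-0.24) and Cfl2 (-0.45).

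**Figure D5:**
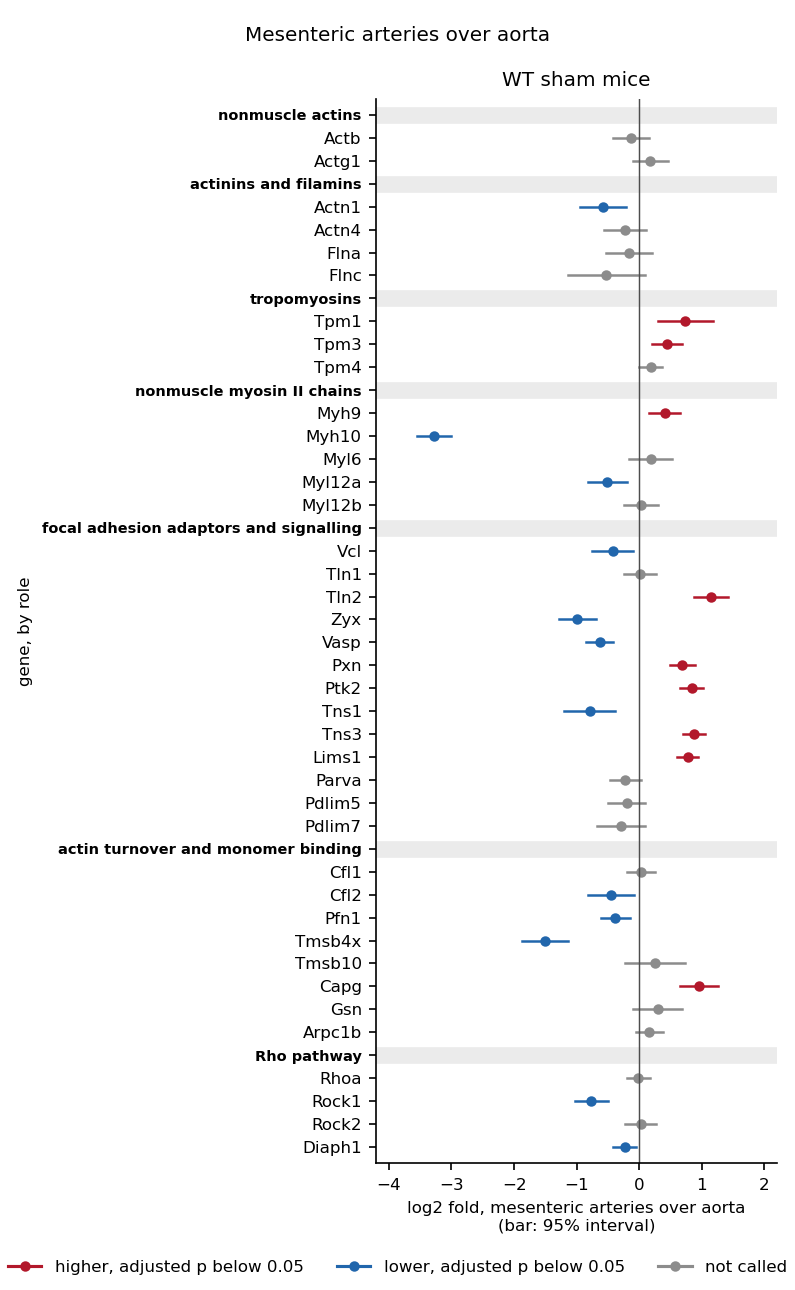
Log2 fold change of WT sham mesenteric arteries over WT sham aortas for the 39 genes by role, with 95% intervals from edgeR. Red (higher) and blue (lower) points are called, and grey points are not. Myh10 at -3.28 lies furthest from 0, and Tln2 at 1.14 is the highest point.

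Several adhesion members were higher in the mesenteric arteries. Tns3 was measured at 127, 149, 164 and 145 CPM in WT sham mesenteric arteries, against 86.7, 77.7, 76.5 and 76.5 CPM in WT sham aortas (log2 0.88 ± 0.08, edgeR adjusted p = 1.22e-08). Ptk2 was measured at 90.7, 104, 115 and 87.6 CPM in WT sham mesenteric arteries, against 57.9, 57.4, 54.3 and 52.4 CPM in WT sham aortas (log2 0.84 ± 0.09). Lims1 was measured at 178, 198, 186 and 184 CPM in WT sham mesenteric arteries, against 117, 102, 109 and 109 CPM in WT sham aortas (log2 0.77 ± 0.08). Tln2 was measured at 40.5, 42.5, 47.1 and 48.0 CPM in WT sham mesenteric arteries, against 19.4 to 21.5 CPM in WT sham aortas (log2 1.14 ± 0.13). The tissues did not overlap for any of these 4. Pxn (paxillin, a scaffold for focal adhesion kinase) by 0.69, Capg by 0.96, Tpm3 by 0.44 and Tpm1 by 0.74 were also higher. Thus 5 of the 13 adhesion members were higher and 4 lower, while neither nonmuscle actin passed.

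Leaving out 1 library gave 18 to 22 called members in this tissue contrast, and leaving out both libraries that stand apart gave 22. Scaling by library size alone and testing without the filter each dropped Diaph1 and Cfl2. Myl12a lost its call without aortic WT sham replicate 2 (edgeR adjusted p = 0.0682). Vcl lost it without aortic WT sham replicate 1, 2 or 3 or mesenteric WT sham replicate 1, 3 or 4, and Diaph1 without aortic WT sham replicate 1 or mesenteric WT sham replicate 1, 2 or 4. Cfl2 kept its call only without aortic WT AngII replicate 1 or 4 or mesenteric KO AngII replicate 3 or 4. Of the 134 other pathway genes 40 were higher and 32 lower in WT sham mesenteric arteries (53.7%, against 38.4% of all genes). Among adhesion proteins Palld (2.91 ± 0.18), Parvb (1.98 ± 0.12) and Arhgef7 (2.17 ± 0.15) were higher, and Fblim1 (-2.56 ± 0.17), Csrp2 (-1.60 ± 0.18) and Pdlim1 (-0.77 ± 0.15) lower. In the Arp2/3 list Arpc1a (0.84 ± 0.07), Wasf3 (1.84 ± 0.23) and Cyfip1 (0.18 ± 0.06) were higher, and Arpc2 (-0.85 ± 0.08) and Wasl (-0.27 ± 0.09) lower. Among actin-binding proteins the tropomodulins Tmod2 (2.59 ± 0.12) and Tmod3 (0.93 ± 0.08) were higher, and Tagln2 (-1.65 ± 0.13) and Anln (-2.28 ± 0.19) lower. Elsewhere Daam2 (1.98 ± 0.16), Cit (3.52 ± 0.32) and Limk2 (0.57 ± 0.09) were higher, and Arhgef11 (-0.45 ± 0.07) lower. Of the transcription factors and cofactors Tead4 (2.74 ± 0.27), Tead2 (1.19 ± 0.22) and Mrtfb (0.46 ± 0.09) were higher and Tead3 (-0.59 ± 0.17) lower.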

How the data were processed

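RNA was measured in 26 libraries of aorta and mesenteric arteries. Per the labels' protocols, RNA was extracted with PureLink RNA Micro, libraries were made with NEBNext Ultra II Directional and read as pairs on a NovaSeq. The authors deposited whole-number read counts per gene, which per the submitters' processing notes came from cutadapt, HISAT2 and HTSeq on GRCm39; versions, annotation and the strand setting are not given in the sources used here. Without that setting, reads of a gene and an opposite-strand partner (Vcl and Ap3m1, Arpc1b and Pdap1, Cfl1 and Snx32, Tpm4 and an antisense RNA) cannot be told apart, and near-identical processed copies leave the counts of genes such as Actb, Actg1, Tmsb4x and Cfl1 uncertain. The 5 HTSeq summary lines of each table stayed out of totals and tests. Gene names and exon lengths came from GENCODE M21, by identifier without version.

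Counts were filtered with filterByExpr, scaled by TMM and tested with the quasi-likelihood test of edgeR 4.0.16 (robust; R 4.3.3), with Benjamini-Hochberg adjustment over all genes tested and a call at 0.05. The 3 groups of an artery entered 1 model, and contrasts between arteries used all 26 libraries. Printed CPM values use the scaling of all 26 libraries. SE, intervals (95%) and p-values measure the spread between libraries, which includes counting error. Ratios of pairs were tested by exact permutation with 0.5 added to each count. Scripts were tested on simulated data. Alternatives were DESeq2 1.42.0, limma 3.58.1 voom with quality weights, other scalings and filters, a replicate block, only the groups compared, and leaving out each library. In each comparison the called members with the smallest adjusted p, up to 8 per direction, are named, the first 4 with every library; with fewer than 2 calls, the 4 with the smallest p; of each pathway list up to 3 called genes per direction, or 1 value. The 5 other called members of the tissue contrast were named after their values were seen, to complete its list. The members and lists were chosen with earlier results of these data known. Counts over 1 group of members and 1 pathway list are not reported here.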

Additional observations from a re-analysis of the deposited data

Results flagged for a closer look

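Of the 132 groups of values examined for a library far from the rest of its group, 5 were marked, over 22 genes; chance marks about 1 group in 20. Vcl was 459 CPM in mesenteric KO AngII replicate 3, below the 706 to 787 CPM of the other KO AngII libraries, and 696 CPM in mesenteric WT sham replicate 2, above the 566 to 588 CPM of the other sham libraries. Tmsb4x was 1270 CPM in mesenteric WT AngII replicate 1 (the others 1050 to 1081), and Pfn1 was 347 CPM in mesenteric WT AngII replicate 3 (the others 292 to 301). Tns3 was 86.7 CPM in aortic WT sham replicate 1 (the others 76.5 to 77.7).

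The log2 effect of AngII differed between the arteries, mesenteric minus aorta, by -0.918 for Tpm4, -1.12 for Capg and -0.793 for Tln2 in the edgeR interaction test.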

How the results depend on the processing

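No value of a called member changed sign under the alternatives run; over the called and named members and the pair ratios 2196 values stayed on their side of the threshold or within the spread, 96 lost their call and 5 gained one, and of the counts 229 stayed within 1.5 times and 8 did not. Members called for WT AngII against WT sham in mesenteric arteries numbered 1 with DESeq2 and 1 with limma voom, and 0 to 1 on leaving out each library, against 0 reported. For KO AngII against WT sham in mesenteric arteries they numbered 1 with DESeq2 and 1 with limma voom, against 0. For the difference of the AngII effect between arteries they numbered 5 with DESeq2, 9 with limma voom and 2 to 5 on leaving out each library, against 3. The cause of these shifts was not tested, and the share of all genes that DESeq2 and limma voom called is not given beside them. A replicate block gave 15, 0 and 13 called members for WT AngII against WT sham, KO AngII against WT AngII and KO AngII against WT sham in aorta (the last without Myh9, Myh10 and Ptk2), 0 in each mesenteric comparison, 19 for the sham tissues (without Vcl and Cfl2), 2 for the AngII interaction (Tln2 lost, edgeR adjusted p = 0.0562) and 0 for the knockout interaction. Same-numbered libraries correlated at -0.289 to 0.343 within a tissue, where 1 of 12 pairs exceeded 0.1 in aorta and 7 of 12 in mesenteric arteries, and at -0.118 to 0.133 across tissues, where 3 of 13 did. Not every pair exceeded it, and the labels give the numbers no meaning, so they were not read as pairs. The fit to only the groups compared called 11 members for WT AngII against WT sham in aorta, without Pdlim7, Myl12a, Diaph1 and Myl6. With 4 or 5 libraries a group, changes smaller than the intervals given for KO AngII against WT AngII were not detectable.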
